A study of Mus musculus with 15 samples.

Results

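Microglia were taken as the cells that the authors placed in a cluster named Microglia, and 1630 of the 35360 retained cells of the mouse prefrontal cortex (PFC) met this rule, or 4.61%. Of these, 1448 came from P60 mice, where the authors divided them into 8 numbered sub-clusters, and 182 from P21 mice, where the name was given by correlation with the P60 clusters. All mice were male C57BL/6N. P60 mice, given as 8 to 10 weeks old in the labels, underwent intravenous self-administration of saline or cocaine and were taken at the end of 15 days of maintenance, after 48 h of withdrawal or after 15 days of withdrawal, with 2 libraries in each of the 6 groups. P21 mice, 3 weeks old in the labels, had no treatment and gave 3 libraries. The methods give 2 pooled mice per library but 4 mice at P21, so how these were divided is not known, and p-values measure only the spread between these 15 libraries. The labels name the nucleus accumbens as tissue while the titles and the paper name the PFC.

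Libraries are numbered as in their titles. At maintenance, libraries 1 and 4 were of cocaine and libraries 2 and 3 of saline mice. At 48 h, libraries 6 and 8 were cocaine and 5 and 7 saline, and at 15 days of withdrawal libraries 9 and 10 were cocaine and 11 and 12 saline. Among all 105 pairs of libraries, 1 pair shared 1 microglial cell barcode, and no pair shared more than 27 barcodes of retained cells. The number of microglia per library ran from 36 to 195 at P60 and was 149, 21 and 12 in the 3 P21 libraries, so the P21 values rest mostly on 1 library. The microglia of a library held between 25371 and 494848 UMIs (unique molecular identifiers, each counting 1 captured RNA molecule) after mitochondrial and ribosomal protein genes, 14.5% to 25.03% of all, were set aside. Levels are given in CPM, UMIs per 1000000 of the remaining UMIs of these cells. As the assay counts the end of each molecule once, CPM was not divided by gene length.

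Microglia are the resident macrophages of the brain. They survey the tissue with motile processes, sense nucleotides and chemokines, clear debris and synapses through complement and phagocytic receptors, and depend on signalling through the Csf1 receptor. C1qa, C1qb and C1qc encode the chains of C1q, the first component of the classical complement pathway, and lie side by side on chromosome 4 of NCBIM37 (mm9), the build of the files, all on the minus strand: C1qb at chr4:136436044-136442102, C1qc at chr4:136445719-136448980 and C1qa at chr4:136451832-136454718.

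The C1q genes set these cells apart from every other type. At least 1 UMI of the 3 genes was found in 98.0% of P60 microglia (95% Wilson interval 97.1 to 98.6, median 3214 UMIs per cell) and 97.3% of P21 microglia (93.7 to 98.8, median 2851 UMIs). The share was 17.6% (17.0 to 18.3) in P60 excitatory neurons, which should lack the genes and had a median of 13620 UMIs, and 10.3% (9.37 to 11.4) in P60 endothelial cells. Per cell, P60 microglia held 95.5 UMIs of the C1q genes and P60 excitatory neurons 0.203. Intervals and limits from counts cover counting error only. Those from UMIs take each UMI as independent, so they are too narrow where many UMIs lie in few cells. C1qa was at 13058 ± 2366 CPM (SD, n = 12 libraries), C1qb at 11555 ± 2467 CPM and C1qc at 9346 ± 1802 CPM in P60 microglia, 3.40% of their UMIs together, and the next type, newly formed oligodendrocytes, had 54.5, 47.8 and 54.1 CPM. C1qa was above C1qb in 12 of 12 P60 libraries and in P21 library 1. In P21 libraries 2 and 3 it was below, at 3943 and 3469 CPM against 7719 and 6346 CPM for C1qb.

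The sequence before the start of C1qb and C1qc is shown with that of P2ry12, a microglial receptor for nucleotides, and of Mrc1 and Cd209a, genes of other macrophages and dendritic cells that were both lower in cocaine microglia at maintenance. Each is 1 window of 300 bases, 250 before to 50 after the start of the gene, from RefSeq on GRCm38.p6, another build than that of the files. Capitals mark GAGGAA, the core letters of sites of PU.1, a factor that macrophages and microglia need, or its reverse complement TTCCTC; overlaps with other motifs were not searched. The windows are chr4:136886151-136886450 for C1qb, chr4:136892865-136893164 for C1qc, chr3:59262936-59263235 for P2ry12 and chr8:3748935-3749234 for Cd209a, on the minus strand, and chr2:14229164-14229463 for Mrc1, on the plus strand.
C1qb: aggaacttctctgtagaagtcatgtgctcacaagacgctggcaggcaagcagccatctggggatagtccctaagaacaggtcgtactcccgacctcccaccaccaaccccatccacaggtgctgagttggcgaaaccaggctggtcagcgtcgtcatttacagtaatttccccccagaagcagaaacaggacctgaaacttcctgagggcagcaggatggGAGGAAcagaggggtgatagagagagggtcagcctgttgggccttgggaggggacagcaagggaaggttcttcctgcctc
C1qc: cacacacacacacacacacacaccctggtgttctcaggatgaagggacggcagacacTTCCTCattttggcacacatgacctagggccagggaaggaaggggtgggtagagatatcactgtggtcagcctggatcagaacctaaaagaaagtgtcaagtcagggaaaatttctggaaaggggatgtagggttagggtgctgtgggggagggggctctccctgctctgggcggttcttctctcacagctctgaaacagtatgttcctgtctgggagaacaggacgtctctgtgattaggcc
P2ry12: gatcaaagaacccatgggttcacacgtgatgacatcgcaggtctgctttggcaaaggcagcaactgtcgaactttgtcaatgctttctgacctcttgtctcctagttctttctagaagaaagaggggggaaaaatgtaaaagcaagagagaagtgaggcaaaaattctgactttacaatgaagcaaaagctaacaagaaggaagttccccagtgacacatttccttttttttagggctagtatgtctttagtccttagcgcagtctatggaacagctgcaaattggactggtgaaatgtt
Mrc1: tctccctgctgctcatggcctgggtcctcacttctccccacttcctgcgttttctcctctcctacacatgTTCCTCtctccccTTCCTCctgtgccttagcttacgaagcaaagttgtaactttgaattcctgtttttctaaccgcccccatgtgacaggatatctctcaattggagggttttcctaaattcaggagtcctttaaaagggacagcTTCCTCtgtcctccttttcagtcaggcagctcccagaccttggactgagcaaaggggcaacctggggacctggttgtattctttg
Cd209a: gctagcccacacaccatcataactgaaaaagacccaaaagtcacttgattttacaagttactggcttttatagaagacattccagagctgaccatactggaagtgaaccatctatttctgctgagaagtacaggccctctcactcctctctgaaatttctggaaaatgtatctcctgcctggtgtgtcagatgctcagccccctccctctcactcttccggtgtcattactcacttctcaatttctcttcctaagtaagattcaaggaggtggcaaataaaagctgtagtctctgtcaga
C1qb and C1qc had 1 match each, starting 30 bases before the gene start in C1qb and 193 before it in C1qc. Mrc1 had 3 matches, at 180, 167 and 35 bases before its start, and P2ry12 and Cd209a had 0. Of all 32851 windows of this length, 9289 held the letters, or 28.3%, so a match is a description of these windows only. C1qa, Tmem119, Clec4n and Selplg have no window here.

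All 18 markers of microglia, the 3 C1q genes and 15 others, were at their highest in microglia among the cell types of the P60 libraries, and 15 of them were more than 10-fold above the next type. As clusters were made from these same cells, this describes the label and tests nothing. P2ry13, a receptor for ADP, was at 341 ± 103 CPM in microglia and 0.911 CPM in the next type, a ratio of 375, and Fcrls was at 1859 ± 464 CPM with a ratio of 198. The lowest ratio was that of Sparc, a matrix protein that endothelial cells also make, at 2.49. Cst3, the protease inhibitor cystatin C, was the most abundant transcript of microglia at 88956 ± 20010 CPM, but astrocytes had 24696 CPM of it. Sall1, a transcription factor of microglial identity, was low at 112 ± 21.4 CPM and 4.12-fold above astrocytes.

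**Figure D1:**
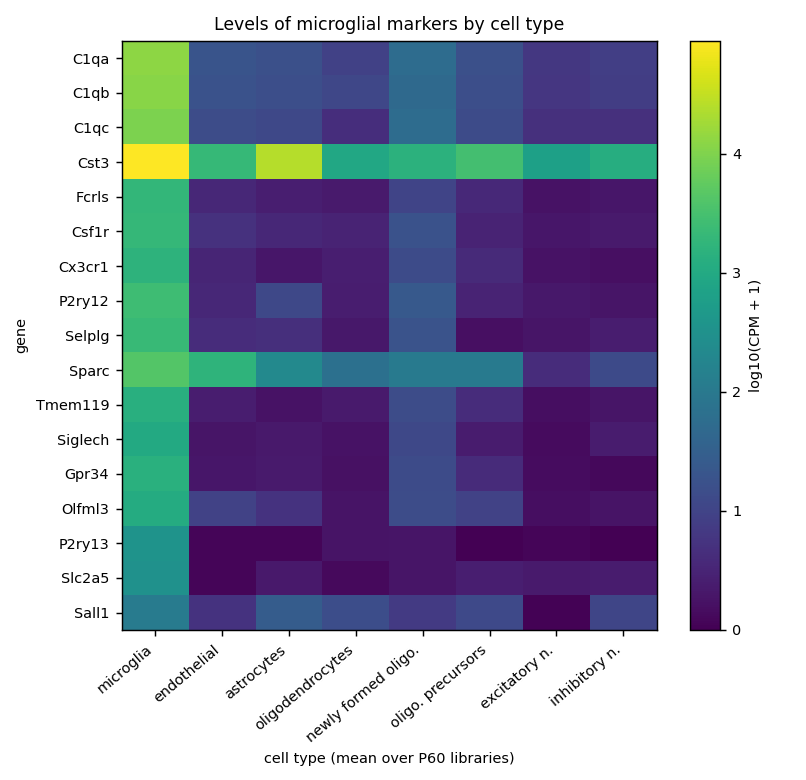
Levels of 17 of the microglial markers (rows) in 8 cell types (columns) as the mean over P60 libraries, coloured by log10(CPM + 1). The microglia column is the brightest in every row, with C1qa at 13058 CPM against 54.5 CPM in the next type, while Cst3 is also bright in astrocytes and Sparc in endothelial cells.

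The 20 most abundant transcripts held 30.01% of the UMIs of P60 microglia. After Cst3 they included Malat1, Tmsb4x, C1qa, H3f3b, C1qb, Ftl1, C1qc, Ctss, Ctsd, Fth1, Fos, Ubb, Ccl4, Nfkbia, Actb, Tyrobp and Fau. The lysosomal proteases Ctss and Ctsd were at 8996 ± 2444 and 8342 ± 1280 CPM, the immediate early gene Fos at 7175 ± 1603 CPM, the chemokine Ccl4 at 6692 ± 1321 CPM and Nfkbia, the NF-kB inhibitor, at 6531 ± 1107 CPM. Fos was not specific to microglia, as endothelial cells had 8740 CPM. Among genes of at least 200 CPM, the 20 with the highest ratio to the next type were Pld4, P2ry13, Gpr84, Bcl2a1b, AF251705, Ly86, Trem2, Fcgr3, C1qb, C1qa, Tyrobp, Hpgds, Cd68, Susd3, Ccl12, Ctss, Slc2a5, Fcrls, Mpeg1 and Ccl3. Trem2, a phagocytic lipid receptor, was at 3041 ± 479 CPM and its adaptor Tyrobp at 5841 ± 1047 CPM. Sfpi1, which encodes PU.1, was at 47.9 ± 12.6 CPM. Of the receptors and transporters that bind cocaine or dopamine, Drd2, Drd3, Drd4, Drd5, Slc6a3 and Slc6a4 had 0 UMIs in the microglia of the 12 P60 libraries together, which allows at most 0.755 CPM. Of the same group, Drd1a was at a mean of 1.11 CPM and Slc6a2 at 0.347 CPM, against 7.10 CPM of Drd1a in excitatory neurons and 0.309 CPM of Slc6a2 in endothelial cells.

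Some of the 1630 cells lacked C1q or carried UMIs of genes known from other cells. Whether these are other cells or microglia with stray RNA was not tested. Of all microglia, 34 had no C1q UMI. Genes of border macrophages, the macrophages of the meninges and vessels (Mrc1, Cd163, Pf4, Lyve1, F13a1, Ms4a7, Cbr2, Stab1 and Mgl2), had 2 or more UMIs in 104 cells, of which 82 also had C1q. In 58 cells, markers of blood leukocytes had 2 or more UMIs. Hemoglobin genes held more than 1% of the UMIs of 24 cells, and 19 cells with over 10% held 94.0% of all hemoglobin UMIs. Markers of other brain cells held more than 1% in 38 cells, 20 of them at P21. A strict set without all of these cells kept 1457, of which 1318 were at P60 and 139 at P21. The authors' broader class of cells, in contrast to the clusters, named 1778 microglia. Of the 148 added cells 147 were at P21 and 145 had C1q UMIs, but 65 lay in clusters of excitatory neurons and 33 in those of endothelial cells, and their C1q level was 5151 CPM against 25049 CPM in the P21 members. These cells are not members here.

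The 8 P60 sub-clusters held 103 to 253 cells, and each had cells of all 12 libraries. Their leading genes are given as a description, since the clusters were made from these cells. Sub-cluster 1 (128 cells) departed most from microglia. It held 27 of the 29 P60 cells without C1q, 38 of the 49 with leukocyte genes and 30 of the 88 with border macrophage genes, and its summed level of 15 identity genes was 71886 CPM against 96541 to 141472 CPM in the others. MHC class II genes, which present antigen, were at 8563 CPM there and at 150 to 681 CPM elsewhere. Its leading genes were S100a8, S100a9, Hp, Lcn2, Slpi, Cyp4f18, Klra2, Anxa1, Plac8 and Sirpb1c, among which Plac8 had 651 UMIs in 29 cells but all 200 UMIs of S100a9, all 45 of Lcn2 and 99.5% of the 403 of S100a8 lay in 1 cell each. S100a8, S100a9 and Lcn2 are known from neutrophils and Plac8 from monocytes. None of the 10 leading genes had UMIs in more than 29 of the 128 cells, so they describe a minority of the cells of this sub-cluster.

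Border macrophage genes summed to 1196 CPM in sub-cluster 1 and to 923 and 966 CPM in sub-clusters 2 and 4, against 87.9 to 138 CPM in sub-clusters 3 and 5 to 8. Sub-cluster 2 was led by Ccl2, a chemokine that attracts monocytes, at 1674 CPM in 203 of 208 cells against 292 CPM in the other microglia, followed by Cd209f, Cbr2, Dab2, Mrc1, Ccl24, Clec4n, Ccl7, F13a1 and Ms4a7. Apart from Ccl2, these had UMIs in 5 to 25 of its cells, and 18 cells had 2 or more border macrophage UMIs. Sub-cluster 4 was led by hemoglobin genes, with Hbb-b1 at 14577 CPM, and then by Ccl7, Cd209f, Clec4n, Ms4a7 and Mrc1. Of its 252 cells, 6 had over 1% hemoglobin UMIs and 17 had 2 or more border macrophage UMIs. Those 5 genes had UMIs in 6 to 15 cells each. Sub-cluster 3 was led by Jsrp1, Cacng3, Rprm, Lrrtm3, Kcnip4, Dkkl1, Atl1, Gpr22, Nptx1 and Tmeff2, several of them known from neurons, its summed level of neuron markers was 2593 CPM, and the cell with the most UMIs of all microglia, 29197, was in it. These leading genes had UMIs in 7 to 17 of its 154 cells. In sub-clusters 2, 3 and 4, the leading genes named here other than Ccl2, the hemoglobin genes included, describe a minority of the cells.

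The remaining sub-clusters differed from each other in immune genes. In sub-cluster 5, Cd79b (223 CPM against 16.3 CPM in the other microglia, 98 of 186 cells) and Cxcl10, an interferon-induced chemokine (335 against 51.1 CPM, 90 cells), led, while all 98 UMIs of Igj lay in 1 cell. Sub-cluster 6 was marked by the chemokines Ccl9 (445 against 219 CPM, 151 of 253 cells) and Ccl6 (465 against 237 CPM, 170 cells). Sub-cluster 7 was led by Tnfaip2 (451 against 70.6 CPM, 114 of 164 cells), Osm and, with Il1b and Tnf, by cytokines of the inflammatory response, with Tnf at 631 against 341 CPM. In sub-cluster 8, Il1b was at 891 against 188 CPM in 69 of 103 cells, and the interferon-stimulated genes Ifit3 and Isg15 led with UMIs in only 4 and 11 cells. Summed complement genes varied less, from 28219 to 42463 CPM outside sub-cluster 1.

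**Figure D2:**
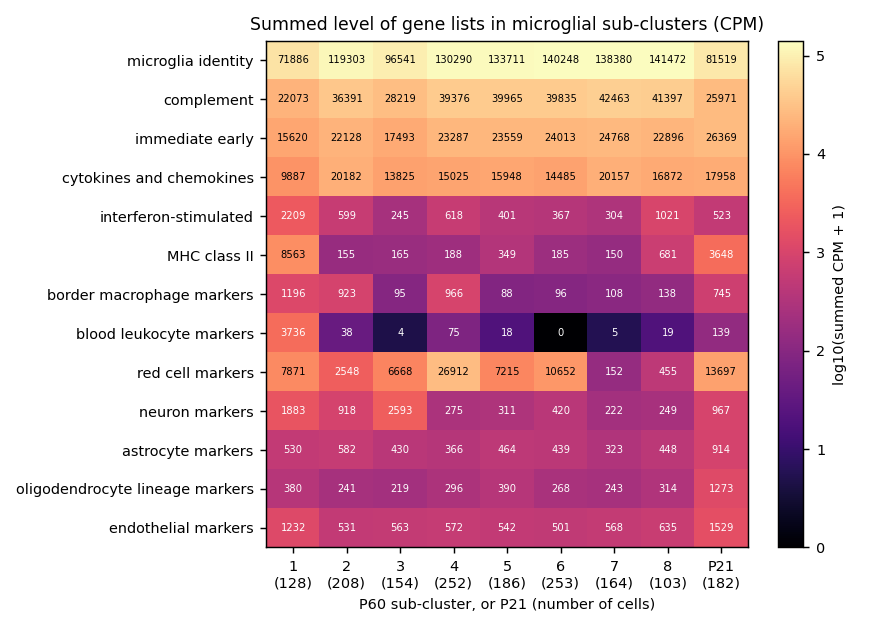
Summed CPM of 13 gene lists (rows) in the pooled cells of the 8 P60 sub-clusters and of P21 microglia (columns, number of cells in parentheses), coloured by log10(summed CPM + 1). Sub-cluster 1 is the lowest in identity genes (71886 CPM) and the highest in blood leukocyte markers (3736 CPM), and sub-clusters 1, 2 and 4 stand out in border macrophage markers (1196, 923 and 966 CPM).

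The share of microglia among retained cells differed widely between libraries and, by the cluster rule, was lowest at the last time point and at P21. At P60 it ran from 1.23% (95% Wilson interval 0.888 to 1.69) in library 10 to 15.3% (13.4 to 17.3) in library 2. The 4 libraries of maintenance had 9.38% to 15.3%, those of 48 h 4.40% to 12.7%, and those of 15 days 1.23% to 3.54%, where 2512 to 3784 cells were retained in place of 1055 to 1504 at maintenance. The P21 libraries had 3.36%, 0.752% and 0.363%. With the authors' class of cells in place of the clusters, these were 5.36%, 1.68% and 1.33%. The low P21 share thus depends in part on the rule for members. Cocaine libraries had a mean of 7.78% ± 5.52 and saline libraries 7.45% ± 5.22 (SD, n = 6 each), a difference of 0.335 percentage points (exact permutation test within time points, two-sided, p = 0.852, smallest possible p 0.00926). The P21 mean of 1.49% ± 1.63 (n = 3) was below that of saline P60 libraries, but the difference did not pass the test (exact permutation test, two-sided, p = 0.0833, smallest possible p 0.0119). Microglia at P21 had fewer UMIs per cell, with library medians of 2893, 2209 and 2315 against 2914 to 4000 in saline P60 libraries (exact permutation test, two-sided, p = 0.0357). This p was 0.0714 without any 1 of the 3 P21 libraries and 0.0893 without library 7, and with the authors' class of cells the difference turned to -149 UMIs (p = 0.643, exact permutation test). Median UMIs of cocaine and saline microglia were 3468 ± 505 and 3287 ± 469 (exact permutation test within time points, two-sided, p = 0.167).

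To find how microglia differ between P21 and the adult PFC, the 3 P21 libraries were compared with the 6 saline P60 libraries. Klk8 was higher at P60 and 28 genes, among them genes known from oligodendrocyte precursors and endothelial cells, were higher at P21. No identity or complement gene passed the test. Of 3993 genes tested with edgeR's quasi-likelihood test, 29 were called (0.726%), that is, differed by over 1.5-fold with p under 0.05 once adjusted by Benjamini and Hochberg's method, 1 higher at P60 (0.025%) and 28 lower (0.701%), and the libraries of the groups did not overlap for 28 of the 29. That count of genes without overlap follows in large part from the call. The median log2 change of all genes was 0.06.

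Klk8, the serine protease neuropsin (chr7:51052947-51059192, plus strand, NCBIM37), was at 55.6, 0 and 0 CPM in the 3 P21 libraries and at 251, 240, 263, 336, 221 and 196 CPM in the saline P60 libraries 2, 3, 5, 7, 11 and 12. The groups did not overlap. The change was 2.65 ± 0.46 on the log2 scale (SE, adjusted p = 0.0109, edgeR), and it stayed past the test in the strict set of cells (2.57 ± 0.43, adjusted p = 0.00679). It did not pass when only libraries with at least 30 microglia were used, which leaves 1 P21 library, or with Bonferroni adjustment. Its 21 UMIs at P21 lay in 18 of 182 cells, all of library 1, and its 466 UMIs in saline P60 libraries in 315 of 675 cells. The mean of the P21 libraries, 18.5 CPM, was below the 41.8 CPM of P21 endothelial cells, but library 1 by itself was above it at 55.6 CPM. P21 libraries 2 and 3 held only 42103 and 25371 UMIs of all genes, so their 0 CPM lies near the limit of detection. Which of the 2 cell types had more Klk8 at P21 is thus not settled. Next in order of p were Il1a (interleukin 1 alpha), Eef1a1 (a translation factor), Fbxw4 and Ppp1r15a (a stress phosphatase subunit), which did not pass, with adjusted p between 0.0746 and 0.0970 (edgeR). Il1a was at 349, 238 and 118 CPM at P21 and at 507 to 802 CPM in saline P60 libraries.

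The 10 genes with the largest fall were Matn4, Pdgfra, Fabp7, Scrg1, Pllp, Ptprz1, Cldn5, Bcan, S100a16 and Cldn11. These are known from oligodendrocyte precursors (Pdgfra, Ptprz1, Bcan), astrocytes and progenitors (Fabp7), myelin-forming cells (Pllp, Cldn11) and endothelial cells (Cldn5). S100a16, a calcium-binding protein, was at 209, 380 and 237 CPM at P21 and at 3.87 to 36.8 CPM in saline P60 libraries, with no overlap, a log2 change of -3.90 ± 0.46 (adjusted p = 0.00177, edgeR). Its 101 UMIs at P21 came from 36 of 182 cells. Fabp7 was at 92.6, 143 and 394 CPM at P21 and at 0 to 13.3 CPM in saline P60 libraries, with 51 UMIs in 28 P21 cells. Matn4 had 30 UMIs in 16 cells at P21 and 0 in saline P60 libraries, so by UMI count it was at least 42.0-fold lower at P60 (against a limit of 3 UMIs over the group). Pdgfra had 25 UMIs in 12 P21 cells and 1 in the saline P60 libraries, a ratio of 105 with a 95% counting interval of 17.2 to 4315.

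Markers of glia and endothelial cells were at higher summed levels in the P21 microglia, and those of neurons were not. Of the 9 oligodendrocyte lineage markers 4 were tested and 1, Pdgfra, was called lower at P60, and their summed level was 709 to 3206 CPM at P21 and 96.8 to 378 CPM in saline P60 libraries, with Aspa at 0 in all P21 libraries. Of 6 endothelial markers 5 were tested and 2, Cldn5 and Bsg, were called lower, with summed levels of 1341 to 2826 against 420 to 963 CPM. Astrocyte markers, 3 of 6 tested and 0 called, summed to 760 to 2325 against 260 to 681 CPM. Neuron markers, 5 of 7 tested and 0 called, had a median log2 change of 0.27 and summed to 197 to 1098 against 178 to 2497 CPM. The median mitochondrial share of microglia was 3.53%, 4.06% and 4.22% in the P21 libraries and 2.70% to 2.91% in saline P60 libraries, and P21 library 3 had 73076 CPM of red cell markers against 119 to 15582 CPM in saline P60 libraries. The part of these values in the result was not tested. Without the cells with over 1% of UMIs from markers of other brain cells, 13 genes were called, 1 higher and 12 lower. Of the 27 earlier calls that could be tested there, 9 remained. This removed 3 of the 12 microglia of P21 library 3, which fell under the 10 cells required and dropped out. Without P21 library 3 but with all other cells, 1 gene was higher and 20 lower, and 16 of the 29 calls remained. The loss of cells and of the library cannot be told apart here. In the set without cells with markers of other brain cells, the changes of S100a16 (-4.07 ± 0.47, adjusted p = 0.00384, edgeR) and Ptprz1 (-4.40 ± 0.83, adjusted p = 0.0427) still passed. Those of Matn4, Pdgfra, Fabp7, Scrg1, Pllp and Bcan did not, with adjusted p from 0.0714 to 0.232 (edgeR). All 27 kept their direction, and the estimates stayed large, as for Fabp7 (-4.66 ± 0.99) and Scrg1 (-4.41 ± 1.03). In the strict set, which keeps 8 cells of P21 library 3, 5 genes were higher and 29 lower and 21 of the 26 earlier calls that could be tested remained.

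Genes that define microglia had mostly positive estimates, and none passed. Of 15 identity genes 0 were called and 13 had a positive estimate, with a median log2 change of 0.48, and of 8 tested complement genes 0 were called and all 8 were positive, with a median of 0.67. Selplg, a selectin ligand, had the largest estimate of the 15 identity genes, at 1140, 1283 and 828 CPM at P21 against 1359 to 2835 CPM (1.17 ± 0.33, adjusted p = 0.147, edgeR). C1qa was at 10425, 3943 and 3469 CPM at P21 against 10017 to 16322 CPM, with a log2 change of 1.20 ± 0.38 and adjusted p = 0.202. P2ry12, by contrast, was at 1376, 2114 and 1813 CPM at P21, with P21 library 1 below and the other P21 libraries inside the range of 1451 to 3934 CPM of the saline P60 libraries (0.76 ± 0.34, adjusted p = 0.420, edgeR). Phagocytic and lysosomal genes (17 tested, median 0.54), purinergic receptors (8 tested, median 0.57) and MHC class I genes (7 tested, median 0.31) had 0 called as well, and so had the 4 MHC class II genes (median -2.12), whose summed level was 15320 CPM in P21 library 2 and 118 CPM in library 3. Apoe, an apolipoprotein of disease-associated microglia that astrocytes also make, was at 6719, 855 and 2680 CPM at P21 and at 313 to 1610 CPM in saline P60 libraries (-2.39 ± 0.65, adjusted p = 0.177, edgeR).

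The count for age moved with the libraries and cells that entered it. Without P21 library 1 it was 7, without saline library 11 it was 66 and without saline library 12 it was 62. With the authors' class in place of the clusters it was 1897. With 12 cells drawn from each library, 453 genes could be tested and 0 were called (52 at an unadjusted p under 0.05 in edgeR; DESeq2 was not run on this draw, and called 52 on all cells).

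**Figure D3:**
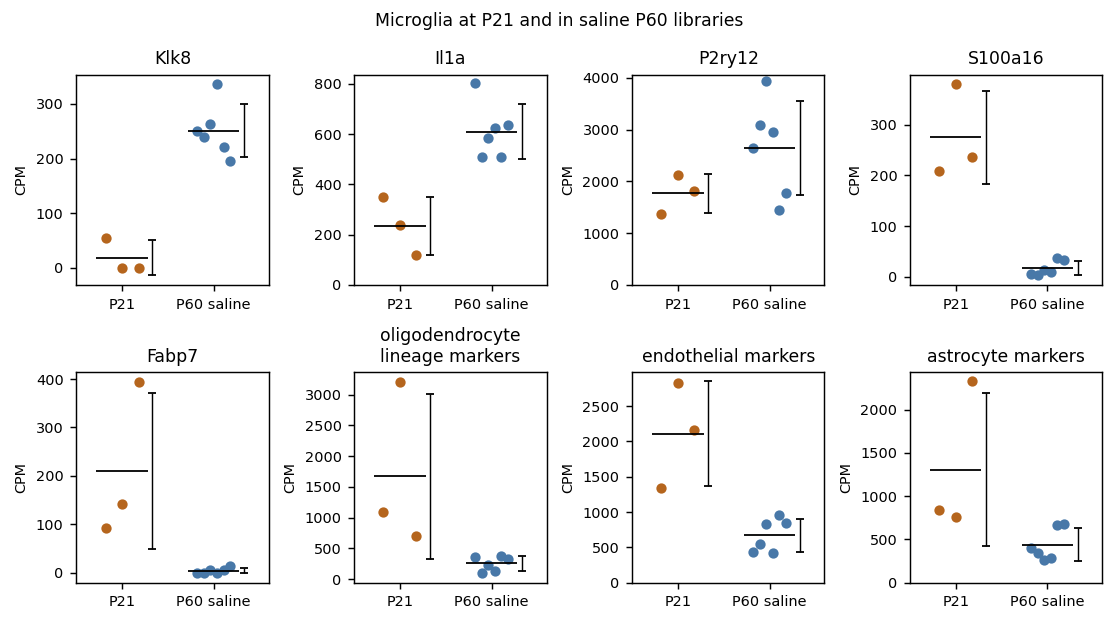
CPM in the microglia of 3 P21 and 6 saline P60 libraries for 5 genes and summed CPM for 3 lists of markers of other brain cells; points are libraries, lines are means and bars are SD. Klk8 lies at 0 to 55.6 CPM at P21 and at 196 to 336 CPM at P60, while S100a16, Fabp7 and the 3 marker lists lie higher in P21 libraries.

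To ask whether these changes were shared with another non-neuronal type, the change with age was compared between types within the same libraries. Against endothelial cells, 110 of 9127 genes differed (1.21%), 76 with the more positive change in microglia and 34 with the more negative (edgeR, interaction of age and type). Klk8 was among them, at 251 and 18.5 CPM at P60 and P21 in microglia and 25.3 and 41.8 CPM in endothelial cells, a difference of 3.75 ± 0.44 on the log2 scale (adjusted p = 1.49e-07). The 18.5 CPM is a mean over libraries, and P21 libraries 2 and 3, with 21 and 12 microglia, had no UMI of Klk8. S100a16 did not change in step either, at 17.1 and 275 CPM in microglia and 456 and 446 CPM in endothelial cells (-3.57 ± 0.41, adjusted p = 1.49e-07, edgeR). The part of RNA from other cells in its level in P21 microglia was not tested. Il1a, at 0.279 and 2.65 CPM in endothelial cells at P60 and P21, and 14 of the 15 identity genes were called in the positive direction, while none of these was called for age in microglia. C1q UMIs, which endothelial cells should lack, moved the same way, from 0.232 per endothelial cell at P60 (all 12 libraries) to 0.701 at P21. At P21, 33 cells of the endothelial clusters were microglia by the authors' class, 32 of them with C1q UMIs, against 0 at P60. Their part in these values was not tested, and these calls are not read as a change of either type. P2ry12, for example, was at 2638 and 1768 CPM in microglia and at 2.61 and 14.3 CPM in endothelial cells at P60 and P21.

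Against astrocytes, 27 of 5623 genes differed (0.48%), 18 positive and 9 negative, with library 3 left out for its 8 astrocytes. Ptprz1, Scrg1, Fabp7, Bcan and S100a16 were among the negative ones. In P21 microglia Ptprz1 had 52 UMIs in 21 cells and Fabp7 51 in 28 cells. The part of RNA from other cells in these negative calls was not tested. S100a16 was at 19.7 and 275 CPM in microglia and 895 and 1248 CPM in astrocytes at P60 and P21, a difference of -3.09 ± 0.50 (adjusted p = 0.00904, edgeR). Zfp36, Cyba, Cd9, Sparc and Nfkbia were called in the positive direction. So were Susd3, Mpeg1, Cx3cr1 and Selplg, whose astrocyte levels were at most 4.15 CPM at P60 and 3.27 to 25.4 CPM at P21. Nfkbia, for example, was at 6315 and 5998 CPM in microglia and at 156 and 481 CPM in astrocytes at P60 and P21. All 18 genes called in the positive direction were higher in microglia than in astrocytes at both ages, and higher in astrocytes at P21 than at P60. As C1q UMIs per astrocyte went the same way, from 0.186 in all P60 libraries to 2.08 at P21, none of these 18 calls is read as a change of either type. The astrocyte cluster held 14 cells that were microglia by the authors' class, 13 of them with C1q UMIs, and their part was not tested.

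Cocaine was compared with saline at each time point in 1 fit of the 12 P60 libraries. At maintenance, 5 genes of border macrophages and dendritic cells were lower in cocaine microglia and none was higher. At 48 h, at 15 days and over the time points together no gene passed. At maintenance, 5 of 5209 genes were called (0.096%), 0 higher (0%) and 5 lower (0.096%), with a median log2 difference of -0.0013 over all genes. DESeq2 called 7. The 5 genes were Mrc1 (the mannose receptor), Ms4a7 (a membrane protein of macrophages), F13a1 (the A chain of coagulation factor XIII), Cd209a (a lectin of dendritic cells) and Clec4n (the lectin dectin-2).

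Mrc1 (chr2:14151041-14253684, plus strand, NCBIM37) was at 2.28 and 2.1 CPM in the cocaine libraries 1 and 4 and at 66.7 and 65.8 CPM in the saline libraries 2 and 3. The groups did not overlap. This was 2 UMIs against 50, or 30.4-fold lower with a 95% counting interval of 7.98 to 258 (adjusted p = 0.00557, edgeR). The other 4 had 0 UMIs in both cocaine libraries. Ms4a7 had 50 UMIs in the saline libraries and was at least 20.2-fold lower by UMI count (adjusted p = 0.0474), Cd209a had 34 and was at least 13.8-fold lower (adjusted p = 0.0437), F13a1 had 32 and was at least 12.95-fold lower (adjusted p = 0.0265) and Clec4n had 25 and was at least 10.1-fold lower (adjusted p = 0.0437), each against a limit of 3 UMIs over the cocaine group. In saline libraries 2 and 3, Ms4a7 lay in 4 and 4 cells, Cd209a in 3 and 3, F13a1 in 4 and 5 and Clec4n in 3 and 2. As UMIs of 1 cell are not independent, these folds are no bound on the difference between groups.

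These UMIs lay in few cells. Any of the 5 genes was found in 1 of 192 and 1 of 181 microglia in the cocaine libraries and in 7 of 195 and 9 of 99 in the saline libraries, with 1 and 1 UMIs against 103 and 88. Over all libraries, 809 of the 846 UMIs of the 5 genes, or 95.6%, lay in the 104 cells with 2 or more UMIs of border macrophage markers. As Mrc1, F13a1 and Ms4a7 are among the markers that chose these cells, this share is in large part fixed by the choice. At maintenance such cells numbered 4 and 6 in cocaine libraries 1 and 4 (2.08% and 3.31% of microglia). Saline libraries 2 and 3 had 5 and 7 (2.56% and 7.07%), so the proportion of cells chosen by this rule overlapped between treatments. Their content did not. These cells held 9 and 12 UMIs of the 9 markers in the cocaine libraries and 229 and 157 in the saline libraries. At least 2 of the 5 genes were found in 0 and 0 cells of the cocaine and in 4 and 4 cells of the saline libraries. The overlap therefore does not show equal numbers of border macrophages. The summed level of the 9 markers was 107 and 92.3 CPM in the cocaine and 525 and 651 CPM in the saline libraries of maintenance, and 3 of 8 tested were called. Of those that did not pass, Pf4 had 0 against 187 UMIs (at least 75.7-fold by UMI count), Cbr2 0 against 23 and Cd163 0 against 14, while Stab1, which microglia also express, had 89 against 58. The median log2 difference of the 8 genes was -3.46 with genes at 0 set to their bound. Without the 104 cells, and in the strict set, none of the 5 genes had enough UMIs to be tested, so these sets say nothing about them. No other gene was called there (0 calls, with 91 and 112 genes at an unadjusted p under 0.05 in edgeR). Without cells with UMIs of other brain cells, and without cells with hemoglobin UMIs, all 5 genes were tested, kept their direction and did not pass, with Mrc1 at -4.62 ± 0.83 (adjusted p = 0.126, edgeR) and -4.26 ± 0.79 (adjusted p = 0.0581). The count was 0 without library 1, 19 without library 4, 12 without library 2 and 1 without library 3. Blood leukocyte markers were at 9.14 and 16.8 CPM in cocaine and 38.4 and 499.7 CPM in saline libraries, with Cd209a as 1 called gene of 4 tested. Cd209a had 18 UMIs in saline library 2, which was most of the level there. Apart from Cd209a, the list was thus higher in saline library 3 only. MHC class II genes were at 158 and 191 against 1615 and 1189 CPM, with 0 of 4 called and a median of -4.83 with genes at 0 set to their bound.

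At the later time points none of the 5 genes was called. At 48 h, Mrc1 was at 45.0 and 48.8 CPM in cocaine and 75.1 and 49.4 CPM in saline libraries, without overlap, and 7 of 8 border macrophage markers had a negative estimate (median -0.29). At 15 days it was at 25.01 and 108 CPM in cocaine and 32.2 and 49.8 CPM in saline libraries, and the groups overlapped. For the 5 genes the log2 difference lay between -0.47 and 0.27 at 48 h and between -0.96 and 0.89 at 15 days. A test of whether the cocaine effect differed between time points called 0 of 5209 genes (0%), with adjusted p = 0.125 for Mrc1 and F13a1 (edgeR; 163 genes at an unadjusted p under 0.05 and 3 called by a DESeq2 likelihood ratio test). Over the 3 time points together Mrc1 was at -1.57 ± 0.35 on the log2 scale (adjusted p = 0.640, edgeR).

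**Figure D4:**
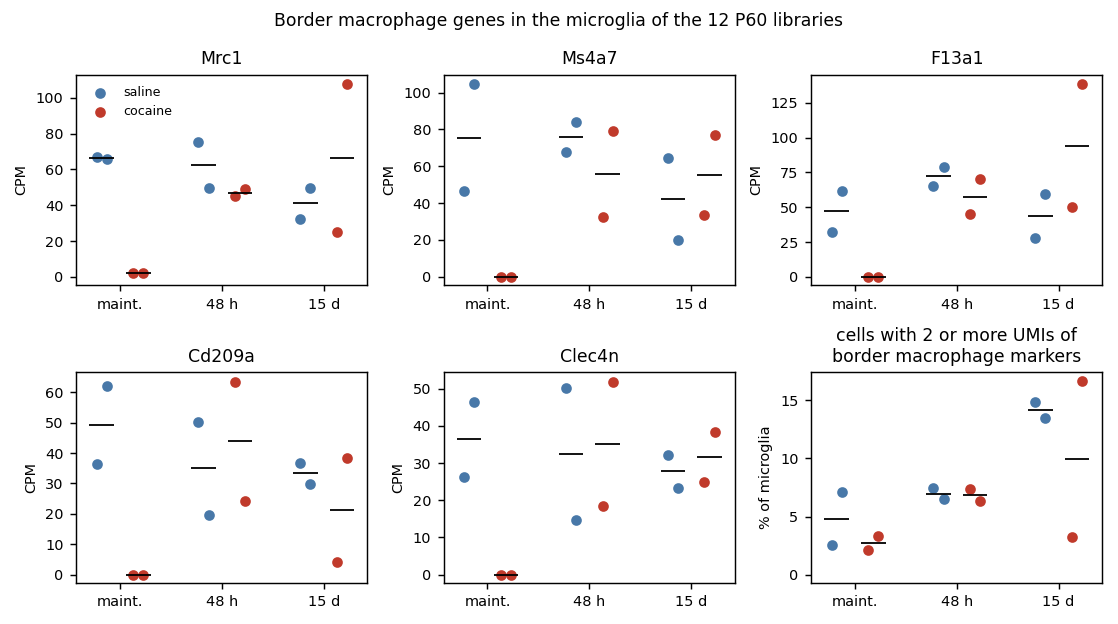
CPM of the 5 genes called at maintenance and the share of microglia with 2 or more UMIs of border macrophage markers, by time point, in saline (blue) and cocaine (red) libraries; points are libraries and lines are means of 2. The 5 genes are at 0 to 2.28 CPM in the cocaine libraries of maintenance and overlap between treatments at 15 days.

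In the lists of microglial genes, no member was called at maintenance. Identity genes had 0 of 15 called and a median log2 difference of 0.08, complement 0 of 8 and 0.07, immediate early genes 0 of 15 and 0.15, NF-kB response genes 0 of 7 and 0.10 cytokines and chemokines 0 of 12 and -0.03 and disease-associated genes 0 of 9 and -0.90. Of the 13 genes of cocaine's targets and innate sensing 4 were tested and 0 called. At 48 h 0 of 5209 genes passed (0%; 154 at an unadjusted p under 0.05 in edgeR, 0 called by DESeq2). At 15 days 0 passed (0%; 214 at an unadjusted p under 0.05, 0 by DESeq2), and the smallest adjusted p was 0.123, for Ddost at 2.01 ± 0.38. Over the 3 time points 0 passed (0%; 181 at an unadjusted p under 0.05, 0 by DESeq2), with Pfn1, the actin-binding profilin, at 0.81 ± 0.20 (adjusted p = 0.640).

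Time in the experiment went with a larger difference than cocaine. At 15 days of withdrawal compared with the end of maintenance, over both treatments, genes of microglial identity, of purinergic sensing and of the immediate early response were lower, while 4 of 5 tested endothelial markers and 3 of 7 tested proliferation genes were higher. Of 5209 genes, 826 were called (15.9%), 486 higher (9.33%) and 340 lower (6.53%), and for 616 of them the 4 libraries of each time point did not overlap. As called genes were chosen for their difference, this count follows in large part from the call and is no further support. The median log2 difference of all genes was 0.02. The test is against the spread between libraries, and anything shared by all libraries of a time point cannot be told apart from it.

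Of the 15 identity genes 12 fell (among them Slc2a5, Selplg, Gpr34, P2ry13, P2ry12, Cst3, Tmem119, Fcrls, Siglech, Cx3cr1 and Sparc), 0 rose, and the median log2 difference was -0.73. Cx3cr1, the fractalkine receptor, was at 2186 and 1653 CPM in cocaine and 1586 and 1596 CPM in saline libraries at maintenance, and at 1346 and 1269 CPM in cocaine and 1248 and 1318 CPM in saline libraries at 15 days. All 4 libraries of maintenance were above all 4 of 15 days (-0.64 ± 0.13, adjusted p = 0.00239, edgeR). P2ry12 was at 2302 to 3079 CPM at maintenance and 1451 to 1770 CPM at 15 days (-0.98 ± 0.15, adjusted p = 0.000266). Tmem119, a membrane protein that marks microglia, was at 1297 to 1422 and 852 to 1092 CPM (-0.73 ± 0.13, adjusted p = 0.000675). Sall1 did not pass, at -0.16 ± 0.22 (adjusted p = 0.653).

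Of 8 tested complement genes 5 fell (among them C5ar1, Itgam, C1qb and C1qc), with a median of -0.66. C1qb was at 11453 to 13014 CPM at maintenance and 7832 to 9174 CPM at 15 days (-0.68 ± 0.11, adjusted p = 0.000253, edgeR), and C1qa, at -0.50 ± 0.11, was under the fold limit. Among 17 phagocytic and lysosomal genes 5 fell (Cd33, Ctss, Lgmn, Mertk and Grn), of which Ctss was at 9895 CPM on average at maintenance and 5885 CPM at 15 days (-0.96 ± 0.11, adjusted p = 3.67e-05). Of 8 purinergic genes 5 fell, with a median of -0.98, among them Entpd1, the enzyme that degrades extracellular ATP (-1.07 ± 0.19), and Adora3, an adenosine receptor. Transcription factors fell in 5 of 14 (among them Cebpa, Maf, Irf8 and Irf5).

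Immediate early genes fell in 11 of 15 (Klf2, Ier5, Jun, Klf4, Klf6, Fosb, Fos, Atf3, Btg2, Dusp1 and Egr1), with 0 higher and a median of -0.81. Fos was at 8268 and 7922 CPM in cocaine and 8869 and 7809 CPM in saline libraries at maintenance, and at 4406 and 5375 CPM in cocaine and 5311 and 5548 CPM in saline libraries at 15 days, without overlap (-0.88 ± 0.12, adjusted p = 7.73e-05, edgeR). NF-kB response genes fell in 5 of 7 (Icam1, Tnfaip3, Zfp36, Nfkbia and Nfkbiz, median -0.65). Of 12 cytokines and chemokines 1, Il1a, fell. The 10 genes with the largest fall were Rgs3, Gm9846, Gm10029, Samsn1, Spry1, Klf2, Nfam1, Casp6, Slc29a1 and Daxx. Rgs3, which limits signalling of G proteins, was at 155 to 327 CPM at maintenance and 43.2 to 96.7 CPM at 15 days (-1.92 ± 0.44, adjusted p = 0.0192). Gm9846 and Gm10029 are predicted genes, and their values are uncertain where near-identical copies share reads.

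The 10 genes with the largest rise were Birc5, Id3, Flt1, Ube2c, Calb2, Rprml, Id1, Ly6c1, Mal and Cxcl12. Birc5 and Ube2c act in mitosis, as does Top2a, which was called too but overlapped between time points. Of the proliferation list, Top2a, Birc5 and Stmn1 were called higher, 3 of the 7 tested genes were negative and the median was 0.28. Birc5 had 30 UMIs in 9 cells at 15 days and 0 at maintenance, by UMI count at least 18.8-fold more against a limit of 3 UMIs over the 4 libraries. These UMIs lay in few cells. At least 2 of Top2a, Birc5 and Ube2c were found in 7 of 241 microglia at 15 days (0, 2, 2 and 3 cells in libraries 9 to 12), in 0 of 667 at maintenance and in 9 of 1630 in all. Flt1 and Ly6c1 are endothelial genes and Calb2 and Mal are genes of interneurons and of myelin. Flt1 had 38 UMIs in 18 cells at 15 days and 1 UMI at maintenance, a ratio of 71.3 with a 95% counting interval of 12.1 to 2891. Id3, an inhibitor of bHLH factors, had 57 UMIs in 24 cells and 1 UMI, a ratio of 107 (18.4 to 4300). Cst7, a cystatin of activated microglia, was at 13.7 to 50.4 CPM at maintenance and 83.0 to 284 CPM at 15 days (1.89 ± 0.34, adjusted p = 0.000924, edgeR). Apoe rose as well, from 86.8 to 686 CPM at maintenance to 313 to 3645 CPM at 15 days, with overlap.

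Some markers of other cells moved with time point. Of 5 tested endothelial markers 4 were called higher at 15 days and summed to 850 to 1361 CPM against 427 to 550 CPM at maintenance. Neuron markers, 2 of 6 called, summed to 1663 to 2797 against 304 to 1028 CPM. Border macrophage markers, 3 of 8 called, summed to 474 and 667 CPM at 15 days against 525 and 651 CPM at maintenance in saline libraries, and to 288 and 961 against 107 and 92.3 CPM in cocaine libraries, so the rise lay in the cocaine libraries, which were low at maintenance. Oligodendrocyte lineage markers, 1 of 4 called higher and the other 3 negative, summed to 138 to 378 against 96.8 to 486 CPM, and astrocyte markers, 0 of 3 called, to 238 to 921 against 349 to 512 CPM. The median UMIs per microglial cell were 3739 to 4155 at 15 days and 2930 to 3054 at maintenance. In the strict set 508 genes were called, 316 higher and 192 lower, and 469 of the 780 earlier calls that could be tested remained. In that set 5 of 15 identity genes fell (median -0.52) and 10 of 15 immediate early genes fell (median -0.63), where 4.29% of all 4478 genes tested were called lower. With each cell thinned to 1500 UMIs 331 genes were called, and 4 identity and 6 immediate early genes fell, with 3.5% of 2918 genes called lower. Their part in the rest was not tested. Within saline libraries alone 112 genes were called, 36 higher and 76 lower, with 6 of 15 identity and 7 of 15 immediate early genes lower (1.46% of all 5209 genes), and within cocaine libraries alone 409, 209 higher and 200 lower (3.84%), with 12 and 10. Without cocaine library 9, 444 genes were called, 184 higher and 260 lower, and without any 1 library the count lay between 444 and 1122.

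**Figure D5:**
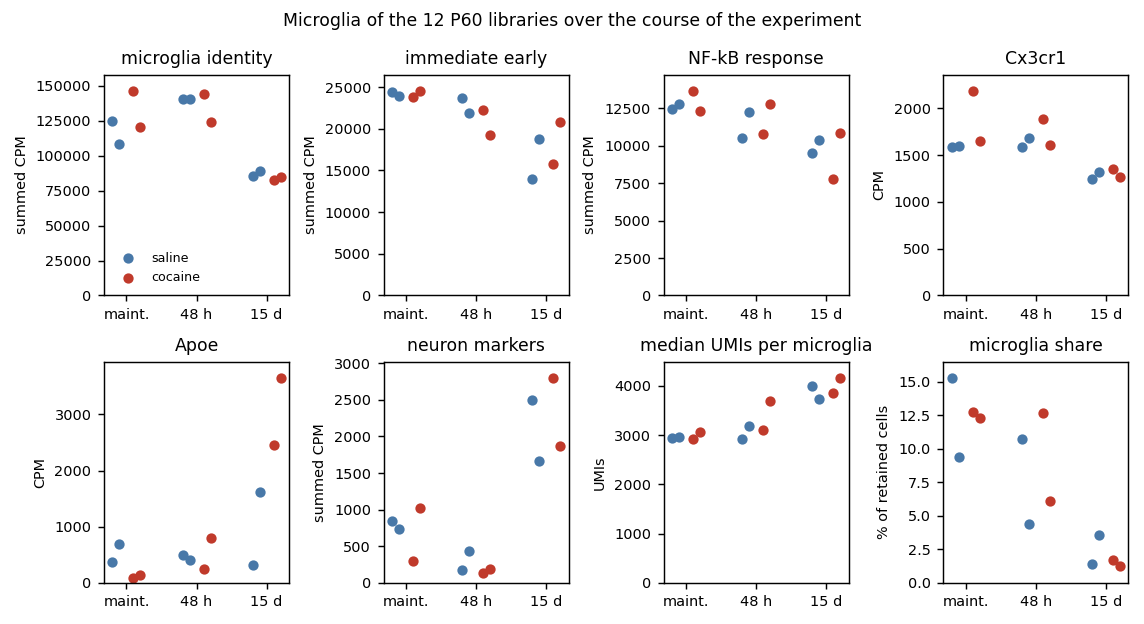
Summed CPM of gene lists, CPM of Cx3cr1 and Apoe, median UMIs and share of microglia in the 12 P60 libraries by time point, saline in blue and cocaine in red; each point is a library. Identity genes sum to 108043 to 146308 CPM at maintenance and to 82376 to 89271 CPM at 15 days, neuron markers and median UMIs are higher and the share of microglia is lower at 15 days.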

How the data were processed

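Single-cell RNA was measured by 3′ counting in 15 libraries of dissociated PFC (papain, 30 °C). Per the methods each was a pool of 2 mice, though how the P21 mice were divided is not known. The deposited UMI counts per gene and cell were made by the authors with Cell Ranger on mm9, and the deposited metadata give clusters made with Seurat 2.1.0. Per the study's methods the authors removed doublets, cells with over 10% mitochondrial UMIs and non-neuronal cells with under 800 genes. The deposited mitochondrial values are a fraction per cell.

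UMI counts of microglia were summed per library over 25990 of 26145 genes, leaving out 13 mitochondrial and 142 ribosomal protein genes, and tested with edgeR 4.0.16 in R 4.3.3 (TMM scaling, filterByExpr, quasi-likelihood test). Genes with a Benjamini-Hochberg adjusted p below 0.05 and over 1.5-fold were called. Libraries needed at least 10 cells. The 12 P60 libraries shared 1 fit. Library values were compared by exact permutation tests (scipy 1.17.1). Depth per library is 25371 to 494848 UMIs. DESeq2 1.42.0, other filters, cell sets and scalings, and leaving out each library were alternatives. Genes named are the 10 largest rises and 10 largest falls among calls without overlap, with those of smallest p, 5 a direction, where calls were few, members of 24 lists, the 10 highest ratios per sub-cluster above 50 CPM, and the 20 highest levels and 20 highest ratios to the next type above 200 CPM. The scripts were tested on simulated data. Members and lists were chosen with earlier results of these data known. The strict, hemoglobin, thinned P60 and single-treatment settings were added after seeing the data. Which libraries were prepared together is not given in the sources used here. Some genes of the lists are not reported here.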

Additional observations from a re-analysis of the deposited data

Results flagged for a closer look

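In 129 groups of libraries checked for 1 value far from the others, 9 had one, where chance would give 6.45 for independent groups of continuous values. For Pdgfra in library 12 and for Id3, Flt1 and Ube2c at maintenance, all other libraries of the group were at 0. Any UMI is then flagged, and these 4 flags rest on 1, 1, 1 and 4 UMIs. The 2 counts are therefore not comparable. At maintenance, library 3 had a summed level of interferon-stimulated genes of 1026 CPM against 415 to 430 CPM in the other 3 libraries, and of blood leukocyte markers of 499.7 CPM against 9.14 to 38.4 CPM. Heat shock genes summed to 11745 CPM in library 2 and to 7424 to 8377 CPM in the other saline P60 libraries. In library 12, Pdgfra was at 3.32 CPM and Cldn11 at 19.9 CPM, against 0 and 3.87 to 8.08 CPM in the other saline P60 libraries. Single libraries also held all maintenance UMIs of Id3 (library 1, 2.28 CPM), Flt1 (library 3, 3.87 CPM) and Ube2c (library 4, 8.39 CPM), and Id3 was at 115 CPM in library 10 against 50.7 to 59.8 CPM in the other libraries of 15 days.

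The change with age differed from that of endothelial cells for 110 genes by the interaction test. The largest positive log2 differences were those of Apln (10.42), Fhad1 (5.06), Pik3cg (4.96), Il1a (4.60), 2610203C22Rik (4.26), Frrs1 (4.16), Klk8 (3.75), P2ry13 (3.67), Hpgds (3.64) and Siglech (3.50). The most negative were those of Bmp4 (-7.67), Zic5 (-6.89), Sh3bp4 (-4.65), G0s2 (-4.30), Pllp (-4.13), Lmcd1 (-4.09), Timp3 (-3.87), S100a16 (-3.57), Nes (-3.34) and Lims2 (-3.04). Apln was at 0 in P21 microglia and Bmp4 at 0 in P60 microglia, so these fitted values depend on the prior count and are no bound. Pik3cg, Il1a, 2610203C22Rik, Frrs1, P2ry13, Hpgds and Siglech were below 1 CPM in endothelial cells at P60 and at 1.64 to 6.62 CPM at P21. As C1q UMIs per endothelial cell went from 0.232 to 0.701, these 7 differences are not read as a change of either type. For the negative differences, the part of RNA from other cells in microglia was not tested.

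Against astrocytes 27 genes differed, with positive values for Susd3 (4.63), Mpeg1 (3.37), Zfp36 (3.02), Cyba (2.86), Cd9 (2.19), Sparc (2.07) and Nfkbia (2.01) and negative ones for Ptprz1 (-4.03), Scrg1 (-3.97), Fabp7 (-3.27), Bcan (-3.23), S100a16 (-3.09), Ednrb (-3.01) and Gsn (-2.74). The positive ones are not read as a change of either type, with C1q UMIs per astrocyte at 0.186 at P60 and 2.08 at P21. For the negative ones, the part of RNA from other cells in P21 microglia was not tested.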

How the results depend on the processing

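No paired analysis was possible because, between groups of libraries, the labels give only running sample numbers that mark no shared animal or batch. The age-by-type fits had library as a block. For age (29 calls), Bonferroni adjustment gave 7, DESeq2 52, no filter 160, libraries of at least 30 microglia 12, the authors' class 1897, leaving out cells with UMIs of other brain cells 13, equal cell numbers 0, saline libraries of maintenance alone 79 and thinning 74, and leaving out 1 library 7 to 66. Leaving out cells with UMIs of other brain cells also dropped P21 library 3, which then held under 10 cells. At maintenance (5 calls), Bonferroni gave 1, no filter 17, the class 2 and equal cells 3. Leaving out cells with other brain or hemoglobin UMIs gave 0, with all 5 genes in the same direction. Leaving out border macrophage cells, or using the strict set, gave 0 with none of the 5 testable, and leaving out 1 library 0 to 19. For the other cocaine comparisons (0 calls), no filter gave 6 at 15 days, 11 over all and 10 for the interaction, equal cells 2 and 4 for the last pair, DESeq2 3 for the interaction, and leaving out 1 library 0 to 5 at 48 h, 0 to 9 at 15 days, 0 to 2 over all and 0 to 4. For time (826 calls), Bonferroni gave 77, DESeq2 349, no filter 1252, no border cells 462, equal cells 293, the strict set 508, thinning 331, saline alone 112, cocaine alone 409, and leaving out 1 library 444 to 1122. The split between higher and lower calls moved to 533 and 288 with DESeq2 size factors. The age change against endothelial cells (110) gave 196 without a filter and 60 to 206 without 1 library, and against astrocytes (27) 116 and 10 to 75. The P21 share difference was 4.40 to 7.16 percentage points without 1 library, passing at 7.16 (p = 0.0357, exact permutation test), and the cocaine share difference -0.767 to 1.44, negative at -0.644, -0.767, -0.714 and -0.0178. The difference in median UMIs was -149 with the class, 90.8 in genes per cell, and 671 to 1025 without 1 library, missing the threshold at 1025, 683, 736 and 836. Id2 at 48 h turned from 0.73 to -0.086 with equal cells. The cause was not tested. Hemoglobin, strict and single-treatment settings, and thinning for time, were chosen after seeing the data. Limits: P21 rests on 3 libraries of 12 to 149 cells, and low genes on few UMIs.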
